A study of Mus musculus with 19 samples.

Results

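Retinoic acid synthesis and binding were followed through 9 genes of the 54146 gene identifiers listed for each whole-kidney RNA library. The genes were taken by symbol: the retinol carrier Rbp4, the retinol dehydrogenase Rdh10, the retinaldehyde dehydrogenases Aldh1a1, Aldh1a2 and Aldh1a3, the cellular binding proteins Crabp1 and Crabp2, the receptor Rarb and the hydroxylase Cyp26b1. They were chosen by name with earlier TPM comparisons of these same libraries known, so their values are a description: members were fitted with all other genes, and nothing is read from their p-values. Messenger RNA came from whole kidneys of B6C3F1/J mice at postnatal day 21. The control group held 3 libraries labelled Dnmt3ab f/f, in which the DNA methyltransferase genes Dnmt3a and Dnmt3b are floxed and no Cre is named. The KspCre DKO group held 2 libraries labelled KspCre Dnmt3ab f/f, which share those floxed genes and add a Cre. Its Ksp-cadherin promoter is active in tubule epithelium, so other cells of the organ may keep both genes. Which cells lost or kept them was not tested. Nothing in the labels says whether the libraries within a group are different animals, so a p-value reflects only how far the libraries vary. Another 14 of the 19 samples are bisulfite libraries and are not analysed here.

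Retinoic acid is made from vitamin A in steps. Retinol reaches cells bound to the serum carrier RBP4, is oxidised to retinaldehyde by dehydrogenases such as RDH10, and is then oxidised to retinoic acid by ALDH1A1, ALDH1A2 or ALDH1A3. CRABP1 and CRABP2 bind the acid in the cytoplasm, the nuclear receptors RAR and RXR read it at response elements in DNA, and CYP26 enzymes break it down. In the developing kidney, retinoic acid made by stromal cells acts on the ureteric bud through its receptors, and collecting duct cells of the mature kidney are also known to respond to it.

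Levels are given in TPM, transcript abundances scaled for length and to an equal sum per library; they hold no read numbers, and the depth of each library is unknown. An exact 0 in them may be a failed estimate. Genes with a TPM above 0 numbered 14710 in KspCre DKO replicate 2 and 18488 to 20510 in the remaining libraries. Mitochondrially encoded genes took 31% of the TPM in KspCre DKO replicate 2 and 18.2% to 23.2% in the others. Dnmt3a stood at 13.2 to 19.0 TPM among controls and at 9.98 and 14.2 TPM among the libraries labelled KspCre DKO, and Dnmt3b at 1.82 to 2.86 TPM and at 2.29 and 3.25 TPM. The groups overlapped for both, so their levels did not check the labels, and KspCre DKO is used here as a label only. Xist stood at or below 0.03 TPM in each library, and the Y-linked gene Eif2s3y at 47.5 TPM or more. Kidney markers were present throughout: Slc34a1, the phosphate transporter of the proximal tubule, stood at 1104 TPM or more, and Umod at 193 TPM or more. In whole-organ RNA, fewer cells of a type and less RNA per cell cannot be told apart.

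Aldh1a3 had the widest range of the 9 genes. This retinaldehyde dehydrogenase (ENSMUSG00000015134.15, chromosome 7, 66390892 to 66427477 in GRCm38.p6) stood at 32.4, 0.58 and 0.40 TPM in control replicates 1, 2 and 3 and at 172 and 165 TPM in KspCre DKO replicates 1 and 2. Both KspCre DKO libraries lay above every control, and control replicate 1 lay far above the other controls without reaching them. The means were 11.1 ± 18.4 TPM (SD, n = 3) and 168 ± 4.45 TPM (SD, n = 2). On the log2(TPM + 1) scale the fold change was 5.34 ± 1.19 (SE). The size of that difference depended on control replicate 1: without it the log2 fold change was 6.83 ± 0.38 (SE), and without control replicate 2 or 3 it was 4.63 and 4.54.

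Aldh1a1, the paralog best known from adult tissues (chromosome 19, 20492583 to 20643463), stood at 5.64, 2.09 and 2.44 TPM among controls and at 6.39 and 15.1 TPM among KspCre DKO libraries. The groups did not overlap, but KspCre DKO replicate 1 lay only just above control replicate 1. The log2 fold change was 1.40 ± 0.48 (SE), and 0.84 without KspCre DKO replicate 2. Aldh1a7 is a close paralog of Aldh1a1, so the division of reads between them is uncertain. Their sum stood at 8.0, 3.03 and 3.56 TPM among controls and at 10.5 and 16.0 TPM among KspCre DKO libraries, in the same order as Aldh1a1 alone.

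Aldh1a2, the main enzyme of retinoic acid synthesis in the embryo (chromosome 9, 71215789 to 71296243), stood at 5.28, 3.06 and 5.38 TPM among controls and at 3.67 and 4.62 TPM among KspCre DKO libraries. The groups overlapped, and the log2 fold change of −0.09 ± 0.36 (SE) was smaller than its error and above 0 with median-of-ratios scaling (0.01). Control replicate 2, the lowest library for this gene, was also the lowest control in the summed levels of 6 podocyte markers (94.8 TPM against 261 and 267 TPM) and of 7 fibroblast markers (90.8 TPM against 206 and 215 TPM). The same held for most other marker sums, such as those of endothelium (111 TPM against 218 and 202 TPM) and red cells (756 TPM against 6691 and 2252 TPM). It did not hold for proximal tubule, principal cell, intercalated cell or nephron progenitor markers. KspCre DKO replicate 1 had a lower fibroblast sum than control replicate 2 (77.3 TPM) and a higher Aldh1a2 level. The part of any of these cells in the level of Aldh1a2 was not tested.

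The make-up of this enzyme family therefore differed between libraries. The 3 genes together reached 43.3, 5.73 and 8.22 TPM among controls and 182 and 185 TPM among KspCre DKO libraries. Aldh1a3 supplied 94.5% and 89.3% of that sum in the KspCre DKO libraries and 74.8% in control replicate 1, but 10.1% and 4.87% in control replicates 2 and 3. In those last libraries Aldh1a2 was the largest share, at 53.4% and 65.5%.

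**Figure D1:**
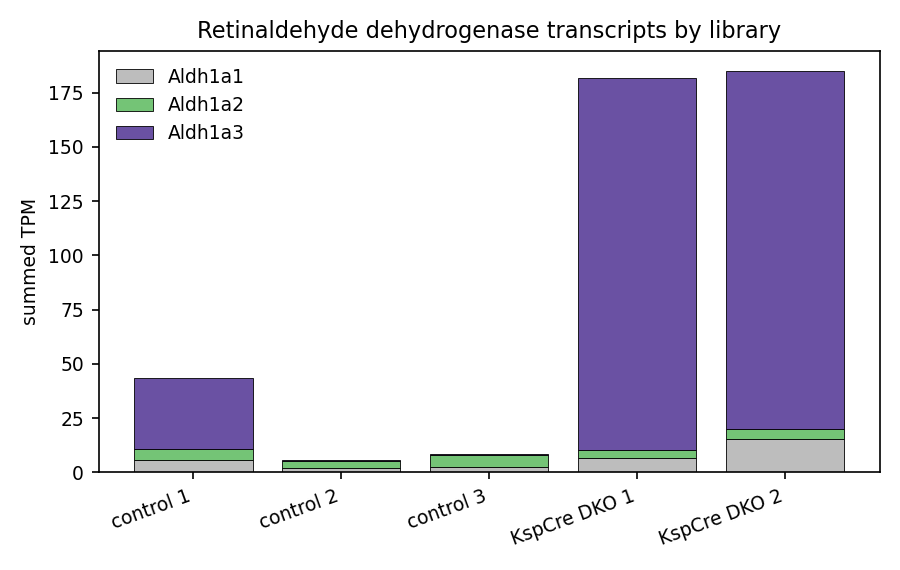
Summed TPM of Aldh1a1, Aldh1a2 and Aldh1a3 in each of the 5 libraries, on a linear axis from 0, with 1 bar per library and 1 colour per gene. The bars reach 182 and 185 TPM among KspCre DKO libraries, where Aldh1a3 takes most of the height, 43.3 TPM in control 1, and 5.73 and 8.22 TPM in controls 2 and 3.

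The binding proteins were low in most libraries. Crabp2 (chromosome 3, 87948693 to 87953372), which carries retinoic acid to its nuclear receptors, stood at 2.71, 0.24 and 0.38 TPM among controls and at 34.3 and 3.85 TPM among KspCre DKO libraries. The groups did not overlap, yet KspCre DKO replicate 2 lay nearer to control replicate 1 than to KspCre DKO replicate 1. The log2 fold change of 2.82 ± 0.82 (SE) became 1.39 when KspCre DKO replicate 1 was left out and 4.25 when replicate 2 was.

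Crabp1 (chromosome 9, 54764748 to 54773110), which is tied to breakdown and buffering of retinoic acid, stood at 1.37, 0 and 1.76 TPM among controls and at 0.23 and 0 TPM among KspCre DKO libraries. It was the 1 member below a mean of 1 TPM over the 5 libraries and so had no fitted value. Aldh1a3 and Crabp2 passed that minimum through the libraries in which they were high.

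The members of the early steps, Rdh10 and Rbp4, differed less between the groups than Aldh1a3, Crabp2 and Aldh1a1. Rdh10 (chromosome 1, 16105882 to 16132550), which makes retinaldehyde in the rate-limiting step, stood at 13.2, 12.8 and 16.4 TPM among controls and at 11.6 and 12.0 TPM among KspCre DKO libraries. Both KspCre DKO libraries lay below every control, by less than the range of the controls, with a log2 fold change of −0.24 ± 0.29 (SE). Rbp4 (chromosome 19, 38116620 to 38125321), made mainly by the liver, stood at 2.56, 0.36 and 2.12 TPM among controls and at 0.83 and 1.24 TPM among KspCre DKO libraries, inside the range of the controls (log2 fold change −0.29 ± 0.53 SE).

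Rarb and Cyp26b1 stand downstream of the acid. Rarb (chromosome 14, 16430839 to 17082331) encodes a retinoic acid receptor whose own gene is a known target of the pathway. It stood at 6.97, 5.96 and 6.29 TPM among controls and at 4.76 and 2.86 TPM among KspCre DKO libraries. Both KspCre DKO libraries lay below every control, the opposite side from Aldh1a3. The log2 fold change was −0.65 ± 0.34 (SE), −0.94 when KspCre DKO replicate 1 was left out and −0.36 when replicate 2 was.

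Cyp26b1 (chromosome 6, 84571414 to 84593908), which hydroxylates retinoic acid for removal, stood at 4.89, 0.66 and 1.20 TPM among controls and at 3.58 and 0 TPM among KspCre DKO libraries. Its highest library was control replicate 1 and its groups overlapped. The log2 fold change of −0.38 ± 0.76 (SE) turned sign without control replicate 1 (0.16) or without KspCre DKO replicate 2 (0.72).

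**Figure D2:**
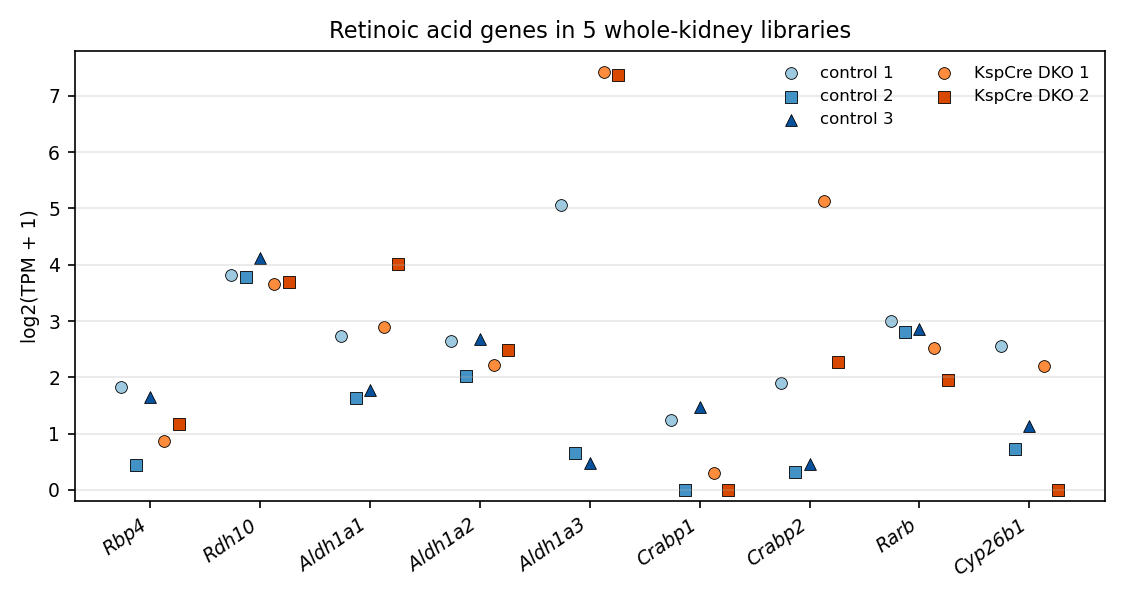
Level of the 9 genes in each library as log2(TPM + 1), ordered from retinol carrier to hydroxylase, with blue symbols for the 3 controls and orange symbols for the 2 KspCre DKO libraries. Aldh1a3 separates the libraries most, from 0.40 TPM in control 3 to 172 TPM in KspCre DKO 1, with control 1 between at 32.4 TPM, while Rdh10 and Aldh1a2 lie close together in all 5 libraries.

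Retinoic acid receptors bind best at a pair of short sites in direct repeat with 5 bases between them, known as a DR5 retinoic acid response element. It was searched by that name, allowing the usual base alternatives within each site, on both strands from 250 bases before to 50 bases after each start in the RefSeq promoter table for GRCm38.p6. It was found in 32 of 32851 promoters, or 0.0974%. Of the 9 genes, 6 had a promoter entry (Aldh1a1, Aldh1a2, Crabp1, Cyp26b1, Rarb and Rbp4), and Rarb was the 1 with a match. Among Cyp26a1, Dhrs3 and Stra6, response genes that had entries, Cyp26a1 had a match. Both are shown because they carry, within 53 bases of the listed start, the kind of element through which the acid acts on its response genes. Each is the 250 bases before the start, 5′ to 3′ on the gene's strand, with the matched repeat in capitals. The Rarb region is chr14:16575477-16575726 on the minus strand, and the Cyp26a1 region is chr19:37697558-37697807 on the plus strand.
Rarb: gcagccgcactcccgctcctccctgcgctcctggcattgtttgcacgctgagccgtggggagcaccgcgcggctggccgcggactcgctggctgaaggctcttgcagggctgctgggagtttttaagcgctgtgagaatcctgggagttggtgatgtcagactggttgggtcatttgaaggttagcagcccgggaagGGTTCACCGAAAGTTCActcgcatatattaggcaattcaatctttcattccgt
Cyp26a1: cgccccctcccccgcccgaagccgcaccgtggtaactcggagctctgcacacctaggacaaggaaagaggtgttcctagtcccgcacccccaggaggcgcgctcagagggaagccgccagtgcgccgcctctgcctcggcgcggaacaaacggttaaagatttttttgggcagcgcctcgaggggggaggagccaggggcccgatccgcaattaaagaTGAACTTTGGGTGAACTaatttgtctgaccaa
The repeat lies 53 to 37 bases before this Rarb start, itself inside the gene's span of 16430839 to 17082331. In Cyp26a1 it lies 32 to 16 bases before the start and reads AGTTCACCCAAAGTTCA on the opposite strand. Rarb was lowest in the KspCre DKO libraries (log2 fold change −0.65 ± 0.34 SE), where Aldh1a3 was highest. The TPM of Rarb are per gene and do not separate transcripts by start. Both KspCre DKO libraries lay below every control for 15.6% of all genes tested. A link between the levels of Rarb and Aldh1a3 was not tested. Cyp26a1, the most retinoic acid-responsive of the hydroxylase genes, stood at 0.22, 0.88 and 0.84 TPM among controls and at 0.89 and 0 TPM among KspCre DKO libraries.

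The promoters also differed in CpG, the site at which DNA methyltransferases place methyl groups. Over all promoters of the table the median was 7 CpG in 300 bases, with quartiles at 3 and 20. The Aldh1a2 promoter held 50 and the 2 promoters of Rbp4 held 40 and 5, while Rarb and Crabp1 held 17 each, Cyp26b1 held 9 and the 2 promoters of Aldh1a1 held 3 and 1. Methylation at these promoters is not analysed here.

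Read library by library, control replicate 1 stood apart for several members. It lay at least 1 log2 unit above both other controls for 3 of the 8 members with a mean of at least 1 TPM (Aldh1a3, Crabp2 and Cyp26b1), a distance that 1.77% of the 13963 genes tested reached. The members were chosen with values of these libraries known, and Aldh1a3 and Crabp2 entered the 8 through libraries in which they were high. Nothing is therefore read from this count, which was 1 (Aldh1a3) with a pseudocount of 5. Control replicate 1 lay 4.49 log2 units above the mean of the other controls for Aldh1a3, 1.5 for Crabp2, 1.62 for Cyp26b1 and 1.03 for Aldh1a1. The KspCre DKO libraries were also unlike each other: replicate 2 lay at least 1 log2 unit below replicate 1 for Crabp2 and Cyp26b1, which 23.1% of all tested genes did, and that far above it for Aldh1a1, which 3.09% did. Replicate 2 was also the library with the fewest genes above 0 and the highest mitochondrial share. With mitochondrially encoded genes taken out before rescaling, the log2 fold changes were 5.60 for Aldh1a3, 3.08 for Crabp2, 1.56 for Aldh1a1 and −0.58 for Rarb. The part of RNA quality in these values was not tested.

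The order of levels also differed between libraries. In control replicates 2 and 3 the highest of the 9 genes was Rdh10, followed by Rarb and then Aldh1a2, and Aldh1a3 was sixth and eighth. In control replicate 1 and both KspCre DKO libraries Aldh1a3 was the highest. By group mean the controls ran Rdh10 (14.1 ± 1.97 TPM, SD, n = 3), Aldh1a3, Rarb (6.41 ± 0.52 TPM), Aldh1a2 (4.57 ± 1.31 TPM), Aldh1a1 (3.39 ± 1.96 TPM), Cyp26b1, Rbp4, Crabp2 and Crabp1. Of neighbours in that order, only Rarb and Aldh1a2 differed by more than the larger of their SDs. In the KspCre DKO group the order was Aldh1a3, Crabp2 (19.1 ± 21.5 TPM, SD, n = 2), Rdh10, Aldh1a1, Aldh1a2, Rarb, Cyp26b1, Rbp4 and Crabp1. There Aldh1a3 and Crabp2, Aldh1a1 and Aldh1a2, and Rbp4 and Crabp1 differed by more than the larger of their SDs, and the other neighbours did not.

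Of the 8 members in the fit over all genes, none was called and 3 had an unadjusted p below 0.05 (limma, adjusted by Benjamini-Hochberg over 13963 genes). In the same fit 0.165% of all genes were called, 14 higher and 9 lower, and 10.3% had an unadjusted p below 0.05. With quantile normalization the split was 35 and 7, and with median-of-ratios scaling it was 24 and 7. Both KspCre DKO libraries lay above every control for 3 members, against 10.5% of all genes tested, and below every control for 2, against 15.6%. Without control replicate 1, Aldh1a3 alone of the members was called, and with each other library left out no member was. The count over all genes was 59 without control replicate 1, 10 and 8 without control replicates 2 and 3, 560 when KspCre DKO replicate 1 was left out and 6 when replicate 2 was. Because results of this comparison were known when the genes were chosen, nothing is read from the members' counts or calls.

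Genes with the most similar profiles were taken as those with the smallest root mean square difference in log2(TPM + 1) over the 5 libraries, after centring, for the 3 members of largest fold change. For Aldh1a3 the nearest were the N-acetyltransferase family gene Nat8f3 (difference 0.88), the steroid dehydrogenase gene Hsd3b2 (0.92) and the serpin gene Serpina1d (0.93). Nat8f3 stood at 12.2, 0.36 and 0.30 TPM among controls and 55.5 and 30.0 TPM among KspCre DKO libraries. Serpina1d stood at 9.36, 0.13 and 0 TPM against 21.7 and 42.5 TPM. In both, control replicates 2 and 3 were lowest, control replicate 1 lay between and the KspCre DKO libraries were highest, a likeness for which they were chosen. KspCre DKO replicate 2 was the higher of its pair in Serpina1d, whereas replicate 1 was in Aldh1a3 and Nat8f3. Hsd3b2 and Serpina1d have close paralogs, so their values are uncertain, and those of Nat8f3, also a family gene, may be too.

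For Crabp2, near profiles were those of the glucuronosyltransferase gene Ugt2b38 (0.37) and of Ndrg4 (0.44). Ugt2b38 stood at 2.30, 0.18 and 0.61 TPM among controls and at 20.8 and 5.25 TPM among KspCre DKO libraries, and as a member of a family of close paralogs its values are uncertain. In these genes, chosen for likeness to Crabp2, KspCre DKO replicate 1 was highest. For Aldh1a1 they were Bglap3 (0.11), Pik3r6 (0.20) and the mesothelial gene Msln (0.21), which stood at 4.95, 2.42 and 3.45 TPM among controls and 6.01 and 13.2 TPM among KspCre DKO libraries.

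**Figure D3:**
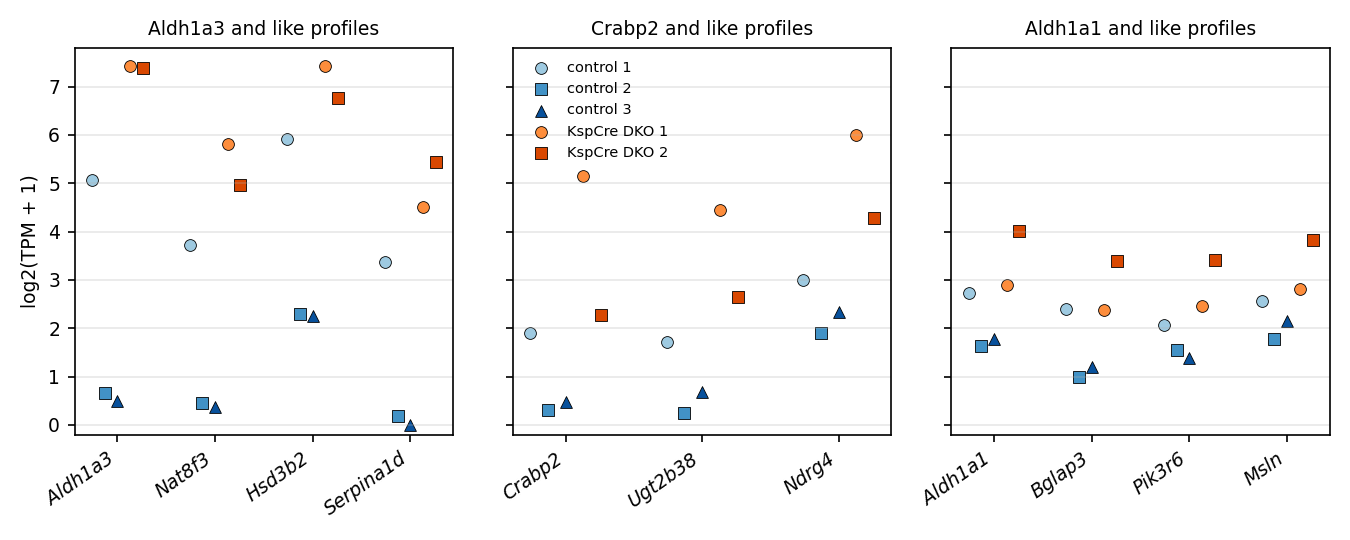
Level as log2(TPM + 1) in each library of Aldh1a3, Crabp2 and Aldh1a1, each beside protein-coding genes of similar centred profile, with blue symbols for controls and orange symbols for KspCre DKO libraries. Control 1 lies between the other controls and the KspCre DKO libraries in the Aldh1a3 panel, KspCre DKO 1 is highest in the Crabp2 panel, and KspCre DKO 2 is highest in the Aldh1a1 panel.

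The other genes of the pathway were divided in direction. Of 45 listed, 31 had a mean of at least 1 TPM; 15 had a log2 fold change above 0 and 16 below. Their median was −0.06, and that of all tested genes −0.14. None was called by limma, where 0.165% of all genes were. Of the 31 tested, 3 had an unadjusted p below 0.05, against 10.3% of all genes tested. Groups did not overlap for 1 gene with higher and 3 with lower KspCre DKO values, or 3.23% and 9.68% of those tested, against 10.5% and 15.6% of all genes.

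Among carriers, Ttr, which encodes transthyretin, the serum partner of RBP4, had the largest fold change of the list. It stood at 127, 81.7 and 72.5 TPM among controls and at 2.50 and 16.3 TPM among KspCre DKO libraries. Every KspCre DKO value lay far below every control, with a log2 fold change of −3.56 ± 0.60 (SE) that did not pass over all genes (limma adjusted p = 0.081). Leaving out 1 library moved its limma adjusted p to both sides of the threshold: it was 0.0803, 0.224 and 0.194 without control replicates 1, 2 and 3, and 0.0432 and 0.0454 without KspCre DKO replicates 1 and 2. In the last pair of fits the spread came from the controls alone, and the single KspCre DKO library was assumed to vary as they do. Over all alternatives the adjusted p ranged from 0.0141 to 0.388, and the log2 fold change from −4.71 to −2.41. Stra6, the RBP4 receptor and a known response gene, was above 0.39 TPM in KspCre DKO replicate 1 alone, at 5.25 TPM, and was listed at 0 in KspCre DKO replicate 2.

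Of 20 dehydrogenases and reductases, 15 were tested, 6 with a log2 fold change above 0 and 9 below. Rdh12, a retinal reductase, stood at 3.33, 11.01 and 18.4 TPM among controls and at 2.06 and 1.26 TPM among KspCre DKO libraries (limma adjusted p = 0.309, log2 fold change −1.93 ± 0.59 SE). Adh1, an alcohol dehydrogenase that oxidises retinol, stood at 181, 146 and 141 TPM against 274 and 209 TPM (limma adjusted p = 0.461, log2 fold change 0.62 ± 0.26 SE). Dhrs3, which turns retinaldehyde back to retinol and is itself raised by retinoic acid in many tissues, stood at 162, 163 and 139.99 TPM against 138 and 89.5 TPM (limma adjusted p = 0.598, log2 fold change −0.47 ± 0.28 SE). The KspCre DKO libraries thus lay above the controls for Adh1 and below them for Rdh12 and Dhrs3, and none of these differences passed.

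The 4 receptor genes tested beside Rarb overlapped between groups. Rara, Rarg, Rxra and Rxrb had log2 fold changes of −0.06, 0.02, 0.48 and −0.20 (limma adjusted p of 0.65 to 0.99). Rarg stood at 17.3, 18.2 and 19.8 TPM among controls and at 20.2 and 17.2 TPM among KspCre DKO libraries. Rxra stood at 13.9, 8.76 and 11.8 TPM against 19.2 and 13.6 TPM. Rxrg, too low to be tested, stood at 0.08, 0.06 and 0.15 TPM among controls and was listed at 0 in both KspCre DKO libraries. Cyp26c1 stood at or below 0.13 TPM in each library.

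**Figure D4:**
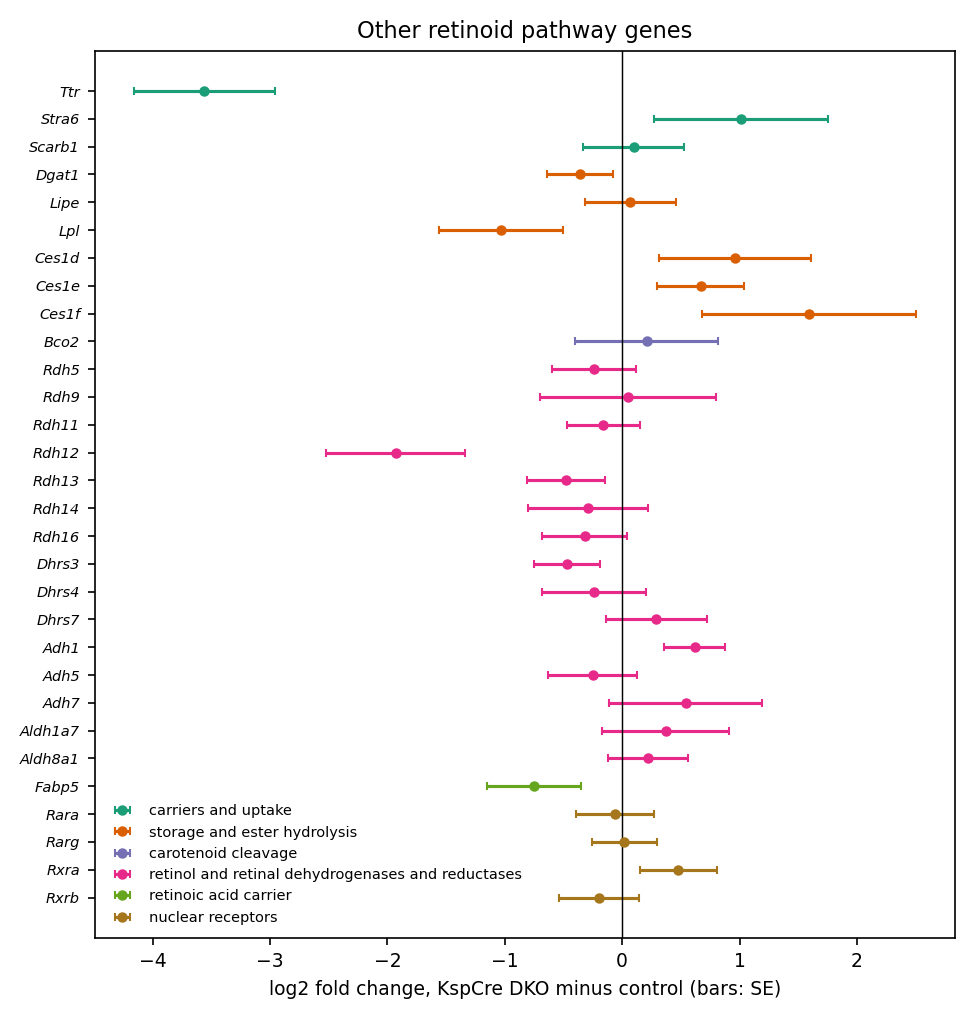
Log2 fold change (KspCre DKO minus control, on the log2(TPM + 1) scale) of 30 of the 31 other retinoid pathway genes tested, coloured by role, with bars for the standard error of the limma fit. Ttr lies farthest from 0, at −3.56, and the 4 receptor genes lie between −0.20 and 0.48.

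Genes known to be raised by retinoic acid were examined as a second list of 23, of which 4 also stand in the pathway list. Of 16 tested, 7 had a log2 fold change above 0 and 9 below, and their median was −0.15, beside −0.14 over all tested genes. None was called by limma, against 0.165% of all genes, and 1 had an unadjusted p below 0.05, against 10.3%. Groups did not overlap for 6.25% (1 gene, higher) and 18.8% (3 genes, lower) of those tested, against 10.5% and 15.6% of all genes. Meis1, a homeobox gene, stood at 3.31, 2.38 and 4.45 TPM among controls and at 2.12 and 1.68 TPM among KspCre DKO libraries (adjusted p = 0.647). Rarres2, which encodes chemerin, stood at 54.3, 37.5 and 57.6 TPM against 35.9 and 33.1 TPM (adjusted p = 0.598). Egr1, an immediate early factor, was higher among KspCre DKO libraries, with 4.89 and 6.23 TPM, than among controls, with 2.90, 2.85 and 3.23 TPM (adjusted p = 0.515). With Dhrs3 of the pathway list, these were the response genes tested whose groups did not overlap.

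Markers of other kidney cells were read beside the members. Of all genes tested, 10.5% had both KspCre DKO libraries above every control and 15.6% had both below. The marker counts given below include genes under a mean of 1 TPM, which those shares leave out. Nothing is read from a marker count near those shares. The summed level of 6 principal cell markers of the collecting duct was 976 to 1041 TPM among controls and 2404 and 2416 TPM among KspCre DKO libraries, with 4 of 6 markers above every control and 1 below. All 4 markers of the thick ascending limb lay below every control, with a sum of 1253 to 1371 TPM among controls and of 633 and 332 TPM among KspCre DKO libraries. Intercalated cell markers summed to 169 to 225 TPM and to 149 and 116 TPM, with 3 of 5 below every control. The 4 distal tubule markers summed to 174 to 276 TPM and to 281 and 236 TPM, with 1 above. The 6 urothelial markers summed to 73.1 to 140 TPM among controls and 387 and 256 TPM among KspCre DKO libraries. Psca alone stood at 316 and 179 TPM among KspCre DKO libraries, and without it the sums were 69.1, 44.6 and 66.1 TPM among controls and 70.9 and 77 TPM. Psca and Upk3a lay above every control, while Upk1a, Upk1b, Upk2 and Krt5 overlapped. Control replicate 1 had the highest urothelial sum of the controls, with Psca at 71.0 TPM against 28.6 and 36.0 TPM.

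Of 6 mesothelial and capsule markers, Msln and Upk3b lay above every control in the KspCre DKO libraries, Krt19 overlapped, Gpm6a overlapped with a lower KspCre DKO mean (8.5 against 14.4 TPM), and Lrrn4 and Muc16 were at or below 0.03 TPM in each library. Their sum was 37.2 to 61 TPM among controls and 63.5 and 79.8 TPM among KspCre DKO libraries. Red cell markers were highest in control replicate 1 of the controls, at 6691 TPM against 756 and 2252 TPM, and stood at 5195 and 5767 TPM among KspCre DKO libraries. Proximal tubule markers summed to 1405 to 2291 TPM among controls and to 3659 and 1341 TPM among KspCre DKO libraries, with 1 of 6 markers below every control.

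Markers of the remaining cell types were mostly lower or overlapping. Fibroblast markers summed to 90.8 to 215 TPM among controls and to 77.3 and 117 TPM among KspCre DKO libraries, with 3 of 7 below every control. Macrophage markers summed to 65.1 to 76.9 TPM and to 42.6 and 49.1 TPM, with 1 of 5 below. Adipocyte markers summed to 192 to 318 TPM and to 91.1 and 75.9 TPM, nearly all of it Fabp4, with 2 of 5 below. Adipoq, Plin1 and Retn stood at or below 0.74 TPM in each library, so the sum is not read as an amount of adipocytes. Nephron progenitor markers summed to 12 to 20.2 TPM and to 6.99 and 3.15 TPM, with 1 of 4 below and Six2 at or below 0.09 TPM. Podocyte markers (94.8 to 267 TPM, and 185 and 147 TPM) and endothelial markers (111 to 218 TPM, and 210 and 139 TPM) overlapped. The part of these cell types in the levels of the members was not tested.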

How the data were processed

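Per the labels' protocols, poly(A) RNA of whole kidneys went into Illumina TruSeq libraries. STAR 2.2.1, RSEM 1.3.1, Trim Galore 0.5.0 and mm10 appear in the submitters' processing notes, without roles. The values the authors deposited are TPM per gene. Strand setting and annotation release are unstated there, and TPM keep no depth, so no counting interval can be given.

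Identifiers were matched without their version suffix to a table of gene names (54079 of 54146, 99.88%), and positions come from RefSeq GRCm38.p6 by symbol. Groups follow the sample titles: 3 control and 2 KspCre DKO libraries. limma 3.58.1 in R 4.3.3 was fitted to log2(TPM + 1) with an intensity trend, two-sided, on the 13963 genes whose mean over the 5 libraries reached 1 TPM, with Benjamini-Hochberg adjustment and calls at adjusted p below 0.05. The fit was tested on simulated data with equal noise in every library, a setting without the differences between libraries described above. Fold changes on that scale understate changes of low genes. An exact permutation of 3 against 2 libraries has 10 splits and cannot go below p = 0.1, so none is reported.

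The members and lists were chosen with earlier results of these data known. Named from the lists were Rar, Rxr, Cyp26, Stra6 and Dhrs3 genes, called genes, and up to 8 others of largest fold change whose groups did not overlap, of which 6 existed. Genes of similar profile were the 3 nearest protein-coding genes per member. Of the genes these rules name, 2 are not reported here; list counts include them. Alternatives were a pseudocount of 0.1 or 5, a minimum mean of 5 TPM or none, 3 scalings, 3 variance or weight settings, a replicate block, and leaving out each library. Leaving out control replicate 1 and KspCre DKO replicate 2 together was added after seeing the data.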

Additional observations from a re-analysis of the deposited data

How the results depend on the processing

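The number of genes called over all genes, 23, changed with most settings: 14 and 39 with pseudocounts of 0.1 and 5, 4 without a filter, 42 with quantile normalization, 37 without mitochondrially encoded genes, 9 without a variance trend, 5 with array weights, 75 with the replicate block, 6 to 560 with 1 library left out, and 0 without control replicate 1 and KspCre DKO replicate 2. Quantile normalization moved the median log2 fold change of all genes from −0.14 to −0.02. The number of members called, 0, was 1 (Aldh1a3) with the replicate block and 0 to 1 with 1 library left out. For the other pathway genes it was 1 (Ttr) with a pseudocount of 5 (adjusted p = 0.0423) and with the replicate block (adjusted p = 0.0141), and 0 to 1 with 1 library left out; the smallest adjusted p in that list ranged from 0.0141 to 0.388 over all alternatives. The number of response genes called was 0 in all 17 alternatives. With a pseudocount of 5, control replicate 1 lay at least 1 log2 unit from both other controls for 1 member, Aldh1a3, in place of 3. The cause of these changes was not tested. The block changed no other call of a member or list gene. Across genes, deviations from the group means of same-numbered libraries correlated at r = 0.0926 and 0.0281 for numbers 1 and 2. Control replicate 3, without a partner, reached r = 0.0708 with KspCre DKO replicate 2. In a group of 2 libraries the deviations mirror each other, so these values cannot decide whether the numbers pair samples. No pairing is assumed, and the block fit draws on control replicate 3 for no fold change. Fold changes of Aldh1a3, Aldh1a1, Crabp2, Rdh10, Rarb and Rbp4 kept their sign in each alternative that gave a value. That of Aldh1a2 turned in 6 of 16 and that of Cyp26b1 in 3 of 16. The depth of the libraries is unknown, so genes listed at 0 cannot be given an upper limit.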
